A study of Oryctolagus cuniculus with 16 samples.

Results

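Cytoplasmic ribosomal protein genes encode the proteins that, with ribosomal RNA, build the large (60S) and small (40S) subunits of the cytosolic ribosome. Members were the genes of the deposited counts table whose symbols follow the RPL, RPS, RPLP or RPSA pattern, without ribosomal protein kinases, mitochondrial ribosomal proteins or pseudogenes. There were 20 among 13001 named genes, 12 of the large subunit and 8 of the small. Of these, 17 passed the filter on low counts, among 10942 genes that did. They were 9 genes of the large subunit (RPL13A, RPL14, RPL24, RPL26, RPL26L1, RPL28, RPL30, RPL37 and RPLP1) and 8 of the small, among them RPS3, RPS6, RPS12, RPS15, RPS16, RPS21 and RPS28. The RefSeq gene table of assembly mOryCun1.1 lists 82 rabbit symbols that follow the same pattern, and 62 of them have no row of their own in the counts table, so the family is described here from a minority of its genes.

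The samples were pieces of vagina from female rabbits of the New Zealand White breed, 17 to 19 weeks old, in a study of wound healing after vaginal surgery that set autologous micrografts beside acellular grafts. The 16 poly(A) RNA libraries comprised 6 control libraries from rabbits without surgery (replicates 2, 9, 16, 24, 25 and 29), 3 from sham-operated rabbits (11, 12 and 14), 3 from rabbits that received an acellular graft (6, 8 and 10) and 4 from rabbits whose graft contained tissue particles (1, 5, 9 and 13), the PLATE group. Replicate names are animal numbers, and the labels do not say whether number 9, used in the control and PLATE groups, is the same rabbit. Tissue of the acellular and PLATE groups was taken 10 mm away from the graft. For sham and control rabbits no such distance is stated, so sampling site and graft cannot be told apart in comparisons of a graft group with either. The time after surgery is not given in the sources used here.

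In a growing cell ribosomal protein mRNAs are among the most abundant messages. Their products are needed in fixed proportions, since each ribosome holds a fixed set. In mammals most of these mRNAs begin with a 5' terminal oligopyrimidine tract (TOP), through which growth signals acting on the kinase mTOR set how strongly they are translated, so that mRNA level and protein output can diverge. The counts measure mRNA only.

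The total count of a library was 20992063 to 30695000, with 15348880 to 23236339 on named genes. A line pooling genes without a symbol took 22.9 to 28.5% and was left out. Mitochondrially encoded genes took 8.92 to 26.0% of named counts, the most in control 2. That library also had the lowest scaling factor of the trimmed mean of M values (TMM), 0.592 against 0.917 to 1.15 in the other 15. Smooth muscle markers of the vaginal wall were found in every library: 7 of 10 were measured and none was at 0. Their summed level in CPM, counts scaled to the effective library size, was 158189 in control 2 and 9375 to 84226 in the other controls. Sham libraries were at 37928 to 64107 CPM, acellular libraries at 13588 to 18607 CPM and PLATE libraries at 29602 to 48557 CPM. Of 10 columnar epithelium markers 7 were measured and none was at 0. They summed to 15.7 CPM in control 2, and 265 to 1371 CPM in the other controls. Sham libraries were at 355 to 504 CPM, acellular libraries at 494 to 1305 CPM and PLATE libraries at 220 to 931 CPM. Immune cell markers were highest in PLATE 1. B and plasma cell markers (8 of 9 measured) summed to 36575 CPM there and to 3832 to 6781 CPM in the other PLATE libraries. They were at 1751 to 2472 CPM in sham, 295 to 11016 CPM in control and 2069 to 5503 CPM in acellular libraries. Neutrophil markers (6 of 8 measured, at most 1 at 0 in a library) summed to 5493 CPM in PLATE 1 and 54.7 to 200 CPM in the other PLATE libraries. They were at 4.03 to 105.5 CPM in sham, 90.4 to 491 CPM in control and 18.7 to 257 CPM in acellular libraries. Macrophage markers (8 of 8 measured) summed to 1626 CPM in PLATE 1 and 212 to 462 CPM in the other PLATE libraries. They were at 161 to 217 CPM in sham, 89.0 to 957 CPM in control and 123 to 457 CPM in acellular libraries. Apart from PLATE 1, no PLATE library was above the control range for any of these lists. The part of these differences in the results was not tested, and in bulk tissue fewer cells of a type cannot be told apart from less RNA per cell.

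The 20 members together took 1.85 to 4.27% of the named-gene counts. Ribosomal protein genes without a row of their own are not in this share. In control libraries the share was 1.85% at the lowest, 2.42% at the median and 3.12% at the highest. It was 2.60, 3.34 and 3.17% in sham 11, 12 and 14, and 4.27, 2.98 and 2.19% in acellular 6, 8 and 10. In PLATE 1, 5, 9 and 13 it was 2.44, 2.06, 2.30 and 2.75%. The acellular group thus held the highest value of the series, and its lowest library lay inside the PLATE range. Group means were 2.44 ± 0.541% in control (SD, n = 6), 3.04 ± 0.386% in sham (SD, n = 3), 3.15 ± 1.05% in acellular (SD, n = 3) and 2.39 ± 0.286% in PLATE libraries (SD, n = 4). All 4 groups overlapped. Counting error was small beside this spread: the exact Clopper-Pearson 95% interval was 4.26 to 4.28% in acellular 6 and 1.85 to 1.86% in control 24. Such intervals cover counting error only.

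**Figure D1:**
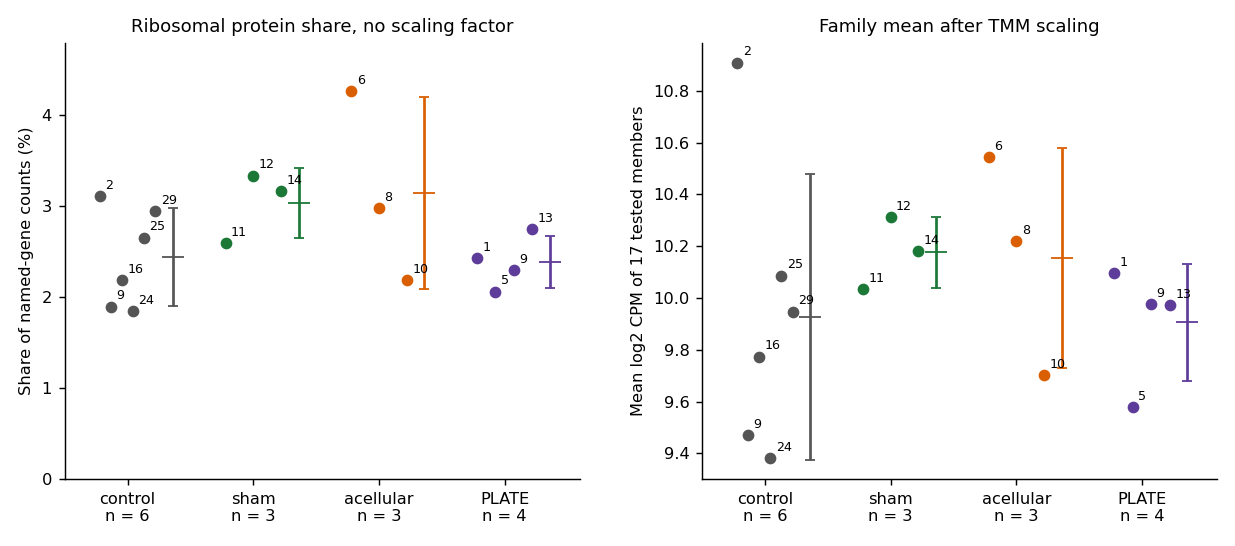
Left, share of named-gene counts on the 20 ribosomal protein genes (%), and right, the mean log2 CPM of the 17 tested members after TMM scaling, for each of 16 libraries, labelled by replicate number; horizontal marks and bars give the group mean ± SD. Acellular 6 has the highest share (4.27%), whereas control 2 has the highest scaled mean (10.91), and in both panels control 9 and control 24 are lowest.

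Which library ranked first depended on the scaling. After TMM scaling the mean log2 CPM of the 17 members was 9.38 at the lowest (control 24), 9.86 at the median and 10.91 at the highest (control 2) among controls. Sham libraries lay between 10.03 and 10.31, acellular libraries between 9.70 and 10.54 and PLATE libraries between 9.58 and 10.10. Control 2 held the highest level of 13 of 17 members on this scale. Without the scaling factor it held the highest level of none, ranked 4th by share, and acellular 6 held the highest level of 15. The low end did not depend on it: control 24 held the lowest level of 10 members with the factor and 11 without, and control 9 of 4 and 3.

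Among the large-subunit proteins, RPL24, RPL26 and RPL37 had the highest mean CPM. Levels in CPM are not corrected for transcript length, so they are compared here between libraries and not between genes. RPL24, a protein near the bridge between the subunits, was at 1395 CPM at the lowest (control 9), 2724 at the median and 8352 at the highest (control 2) in controls. It was at 2402, 3508 and 3167 CPM in sham 11, 12 and 14, at 4423, 3471 and 2034 CPM in acellular 6, 8 and 10, and at 2552, 2228, 2396 and 2443 CPM in PLATE 1, 5, 9 and 13. Thus RPL24 in control 2 stood above every other library, and the PLATE libraries lay within a narrow band inside the control range.

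RPL26, which sits by the tunnel through which the new peptide leaves, ranged from 1815 CPM (control 9) over a median of 2980 to 6183 (control 2) in controls. Its level was 2871, 3879 and 3484 CPM in sham 11, 12 and 14, 4098, 4291 and 2404 CPM in acellular 6, 8 and 10, and 2955, 2600, 2745 and 2887 CPM in PLATE 1, 5, 9 and 13. RPL37, a small zinc-binding protein of the 60S core, ranged from 1141 CPM (control 24) over a median of 1622 to 3047 (control 2) in controls. It was at 1709, 2191 and 2039 CPM in sham, 2535, 2333 and 1478 CPM in acellular and 1841, 1461, 1879 and 1765 CPM in PLATE libraries, in the same order of replicates. For both genes acellular 6 and acellular 8 were above all PLATE libraries, and acellular 10 was not.

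Among the small-subunit proteins the highest mean CPM belonged to RPS6, RPS3 and RPS12. RPS6, the substrate of the S6 kinases downstream of mTOR, was at 2220 CPM at the lowest (control 9), 3232 at the median and 7719 at the highest (control 2) in controls. It was at 3738, 4030 and 4082 CPM in sham 11, 12 and 14, at 5140, 3646 and 2985 CPM in acellular 6, 8 and 10, and at 4227, 2829, 3076 and 3532 CPM in PLATE 1, 5, 9 and 13. The sham libraries were the most alike, and the other groups all reached both below and above them.

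RPS3, at the mRNA entry channel of the 40S subunit, ranged from 1742 CPM (control 24) over a median of 2696 to 5000 (control 2) in controls. It was at 3103, 2784 and 3574 CPM in sham 11, 12 and 14, at 4683, 3195 and 2568 CPM in acellular 6, 8 and 10, and at 2803, 2476, 3027 and 2812 CPM in PLATE 1, 5, 9 and 13. All groups overlapped for RPS3.

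RPS12, a protein of the beak of the 40S subunit, departed most from the family. In controls it was at 5559, 951, 1703, 1954, 425 and 2645 CPM in replicates 2, 9, 16, 24, 25 and 29. It was at 2826, 3147 and 1769 CPM in sham 11, 12 and 14, at 2398, 3291 and 1395 CPM in acellular 6, 8 and 10, and at 2365, 1274, 1632 and 2561 CPM in PLATE 1, 5, 9 and 13. The value in control 25 rested on 8192 counts, and every other library had at least 23766. The other members were not low there: 13 of 17 were above their own mean in control 25. Relative to the library's family mean, RPS12 lay 2.27 log2 units below its usual place in control 25.

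**Figure D2:**
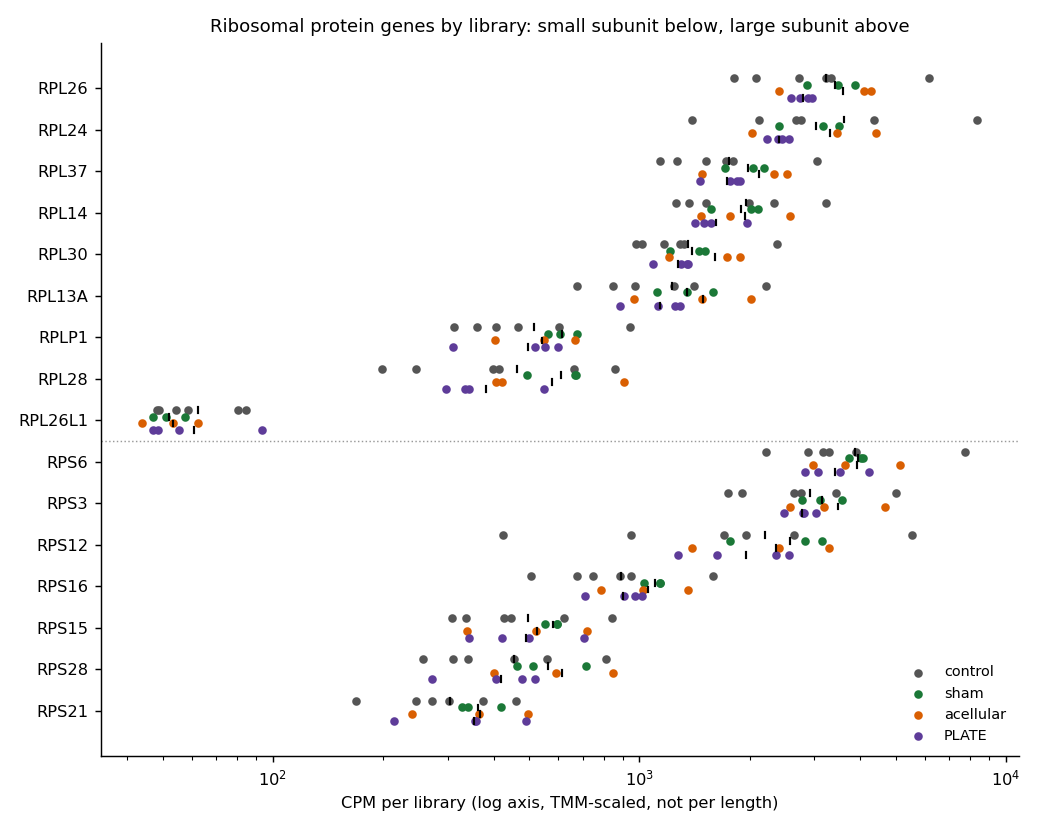
CPM of 16 of the 17 tested ribosomal protein genes (log axis, TMM-scaled, not per length), 1 point per library, coloured by group, with short black bars at group means; large-subunit genes are above the dotted line. The point for RPS12 at 425 CPM is control 25, and the highest points of RPL24 (8352 CPM) and RPS6 (7719 CPM) are control 2.

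The other members described here spanned narrower or lower ranges. RPL13A, which in human myeloid cells also acts outside the ribosome as a translational repressor, ran from 674 CPM (control 24) to 2210 CPM (control 2). RPL14, on the surface of the 60S subunit, ran from 1261 CPM (control 9) to 3234 CPM (control 2), and RPL30, at a bridge between the subunits, from 980 CPM (control 24) to 2372 CPM (control 2). RPLP1, an acidic protein of the stalk that recruits elongation factors, ran from 309 CPM (PLATE 5) to 943 CPM (control 2). Of the small subunit, RPS16 ran from 505 to 1590 CPM and RPS15 from 309 to 840 CPM, both lowest in control 24 and highest in control 2. RPS28 (257 to 847 CPM) and RPS21 (168 to 497 CPM) were lowest in control 24 and highest in acellular 6. RPL28, a large-subunit protein, ran from 198 CPM in control 24 to 908 CPM in acellular 6. In these genes the extremes fell in control 2, control 9, control 24, acellular 6 and PLATE 5.

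The members moved together from library to library. The SD of a member's log2 CPM over 16 libraries had a median of 0.435, close to 0.433 for all genes tested. Measured from the mean of the other members in the same library it had a median of 0.171, and a median of 16.9% of a member's squared deviation was left. Without control 2 the median left was 23.1%. The SD was smaller after this subtraction for 16 of 17 members. RPL37 followed the others most closely, with an SD of 0.0852 from their mean, followed by RPS16 (0.105) and RPL13A (0.115). RPS12 (0.759), RPL28 (0.453) and RPL26L1 (0.439) followed them least. All libraries and genes share the same counting and scaling, so this is a description and carries no test.

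The same measure differed among other gene lists of translation and growth. The median squared deviation left was 29.4% for 10 cell cycle genes, 39.1% for 6 other TOP mRNAs and 43.7% for 50 mitochondrial ribosomal protein genes. It was 72.1% for 45 ribosome assembly factors and 78.5% for 25 initiation factors. For 17 genes of growth signalling to ribosomes it was 100.4%. For 4 genes listed under elongation and termination (ETF1, GSPT1, EEF2K and EEF1E1) it was 101.9%. The cytoplasmic ribosomal protein genes had the lowest value of the lists measured, with and without control 2. Without that library they were at 23.1% and the cell cycle genes at 28.7%. The other TOP mRNAs were then at 51.1% and the mitochondrial ribosomal protein genes at 55.1%. Lists differ in number of genes and in level, and EIF3E and EIF3F are in both the TOP and the initiation factor list. The differences between lists were not tested.

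**Figure D3:**
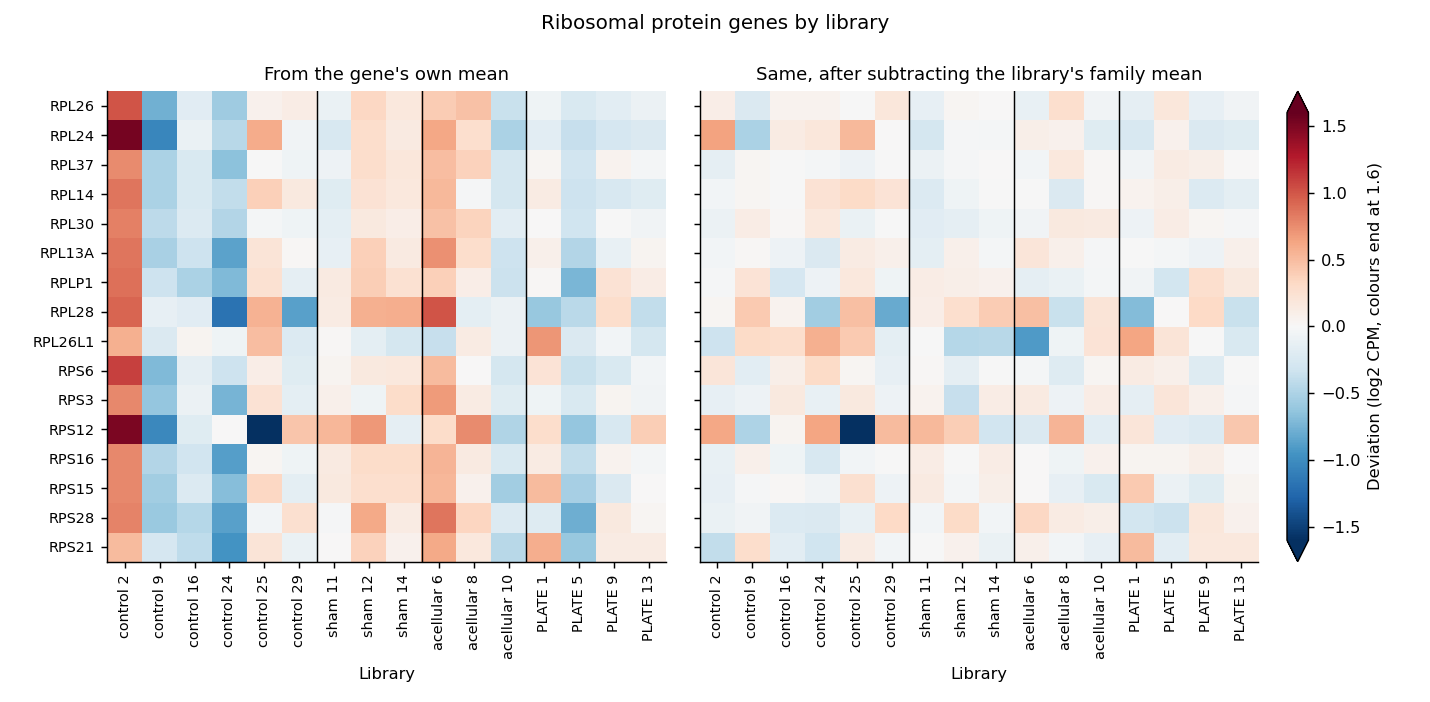
Deviation of log2 CPM of 16 of the 17 tested ribosomal protein genes from each gene's own mean over 16 libraries (left) and after also subtracting the library's mean over the 17 members (right), with colours ending at 1.6; vertical lines separate control, sham, acellular and PLATE libraries. On the left whole columns are of a like colour, as in control 2, where every gene drawn is above its mean. On the right the largest departures left are RPS12 in control 25 (-2.27) and RPL26L1 in acellular 6 (-0.90). RPL28 in control 29 follows at -0.81, and smaller departures are left in other libraries.

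Libraries of the same group stood at different ends of the range. In control 2, 17 of 17 members were above their own mean over the 16 libraries, and in acellular 6 it was 16 of 17, RPL26L1 being the exception. In control 9, acellular 10 and PLATE 5 none of the 17 was above its mean, and in control 16 and control 24 it was 1 each. The sham libraries were the most even, with 10, 15 and 15 of 17 members above their mean in sham 11, 12 and 14, and their family means of 10.03, 10.31 and 10.18 were all above the mean of 10.01 over 16 libraries. The control group thus held both ends of the range. The pooled SD of the family mean within groups was 0.416 log2 units, against 0.392 over all 16 libraries without regard to group.

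The balance of the subunits varied less than the family level. Mean log2 CPM of the 9 large-subunit members minus that of the 8 small-subunit members was -0.17 ± 0.186 in control (SD, n = 6), -0.35 ± 0.0947 in sham (SD, n = 3), -0.28 ± 0.0987 in acellular (SD, n = 3) and -0.31 ± 0.140 in PLATE libraries (SD, n = 4). The sign of this difference says nothing about the subunits, since levels are not per length, and only its variation is of use. Control 25, where RPS12 was low, had the highest value at 0.17, and sham 11 the lowest at -0.46. The groups overlapped.

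RPL26 and its paralog RPL26L1 parted ways. RPL26L1 is a retained copy of RPL26 whose protein is nearly identical, and how reads that match both genes were counted is not given in the sources used here, so the split between them is uncertain. RPL26L1 was at 84.6, 48.3, 58.6, 54.5, 80.4 and 48.9 CPM in control 2, 9, 16, 24, 25 and 29, at 57.6, 51.1 and 47.0 CPM in sham 11, 12 and 14, at 44.1, 62.6 and 53.2 CPM in acellular 6, 8 and 10, and at 93.3, 48.6, 55.3 and 47.0 CPM in PLATE 1, 5, 9 and 13. It was the member whose SD grew, from 0.325 to 0.439, when the mean of the others was subtracted. CPM of RPL26 per CPM of RPL26L1 was lowest in PLATE 1 (31.7) and highest in acellular 6 (93.0).

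**Figure D4:**
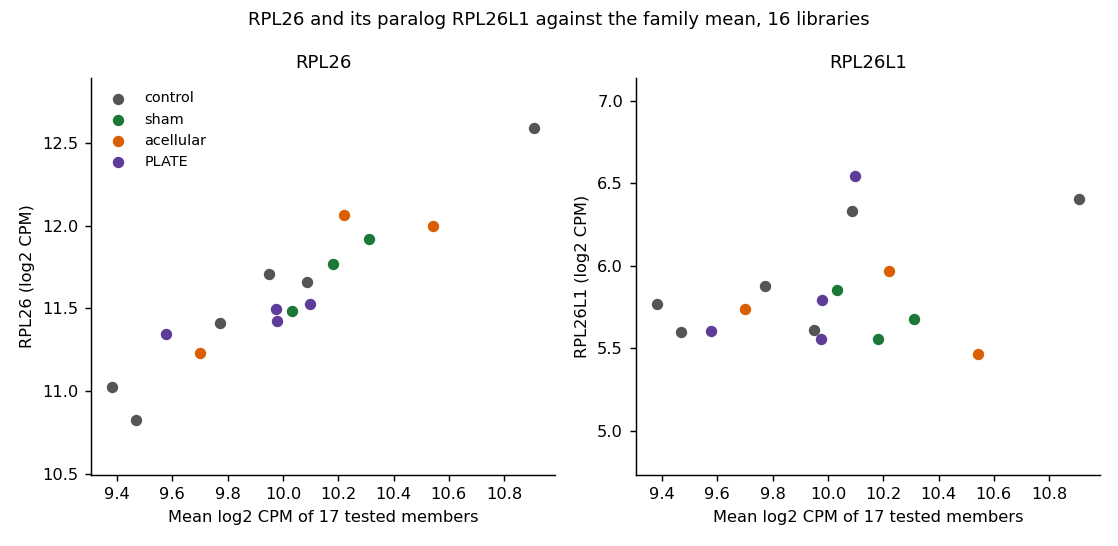
Log2 CPM of RPL26 (left) and of its paralog RPL26L1 (right) against the mean log2 CPM of the 17 tested members, 1 point per library, coloured by group, both vertical axes spanning the same number of log2 units. RPL26 climbs with the family mean, whereas RPL26L1 is highest in a PLATE library (93.3 CPM) and lowest in acellular 6 (44.1 CPM), where the family mean is 10.54.

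The members that were not tested had few or no counts. RPL3L, the copy of RPL3 used in striated muscle, had 97 counts in total over 15 libraries, with 16 in acellular 6 and 0 in acellular 8. RPL10L, the testis copy of RPL10, had 1 count in sham 11 and 1 in PLATE 9. RPL39, not a paralog copy but a small protein lining the exit tunnel and otherwise widely expressed, was at 0 counts in all 16 libraries. The annotation and the treatment of reads matching several places are not given, so this 0 cannot be read as absence of RPL39 mRNA. The limit that a count of 0 allows, 3 counts, corresponds to 0.270 CPM in control 2, whose library size after scaling was the smallest. RPL3 and RPL10 have no row of their own in the table and are not analysed here.

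Sham surgery was compared with no surgery to ask what the operation alone leaves behind. No member passed an adjusted p of 0.05 in edgeR's quasi-likelihood test (0 of 17; background 0% of 10942 genes), and none had an unadjusted p under 0.05 (background 2.98%). The median log2 fold change of the members was 0.18, against -0.06 for all genes tested, and 14 of 17 were above 0 (background 42.1%). That median was 0.07 without control 9, 0.41 without control 2 and 0.38 without a scaling factor. The median standard error of a member was 0.320. The smallest p belonged to RPL26L1 at -0.27 ± 0.244 (SE), RPS16, whose tail reaches the P site, at 0.30 ± 0.291 and RPL28 at 0.40 ± 0.406. Without control 2 they were at -0.16, 0.55 and 0.68, and without control 24 RPS16 was at 0.18 and RPL28 at 0.25. The smallest adjusted p of a member was 0.963. The groups overlapped for all 17 members (background 3.69% of genes without overlap).

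Acellular grafts against control gave a median of 0.23 over the members, against -0.03 for all genes, with 14 of 17 above 0 (background 45.8%). Again 0 of 17 passed (background 0%; smallest adjusted p of a member 0.885 in edgeR), 0 had an unadjusted p under 0.05 (background 6%), and every member overlapped between groups (background 1.73% without overlap). RPS28, a small protein near the mRNA exit channel, was at 401 to 847 CPM in acellular and 257 to 813 CPM in control libraries, a log2 fold change of 0.43 ± 0.341 (SE). RPL37 stood at 0.27 ± 0.285 and RPL26L1 at -0.23 ± 0.244. Without acellular 6 the members' median was -0.02, RPS28 was at 0.13 and RPL37 at 0.12. Without control 2 the median was 0.50, RPS28 was at 0.69, RPL37 at 0.52 and RPL26L1 at -0.11, and without acellular 8 RPL26L1 was at -0.36.

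PLATE grafts against control gave a median of -0.10 (all genes -0.01), with 2 of 17 above 0 (background 47.7%), RPS21 and RPS16. Of the 17, 0 passed (background 0%; smallest adjusted p of a member 0.998 in edgeR), 0 had an unadjusted p under 0.05 (background 4.39%) and 0 were free of overlap (background 0.119%). RPL24 had the smallest p at -0.59 ± 0.410 (SE), followed by RPL14 at -0.27 ± 0.273 and RPS21, a small 40S protein, at 0.22 ± 0.281. Without control 2 RPL24 was at -0.16 and RPL14 at -0.08. RPS21 was at 0.03 without PLATE 1 and at 0.40 without PLATE 5. The direction of the members' median depended on control 2 and on the scaling, being 0.14 without that library and 0.03 without a scaling factor, and it was -0.20 without control 24.

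The mean of the 3 operated groups against control gave a median of 0.10 (all genes -0.03), with 13 of 17 above 0 (background 44.6%). No member passed (background 0%; smallest adjusted p 1.00 in edgeR), had an unadjusted p under 0.05 (background 3.88%) or was free of overlap (background 0.00914%). RPS21 stood at 0.25 ± 0.229 (SE), RPL26L1 at -0.18 ± 0.176 and RPL24 at -0.32 ± 0.321. Without control 2 the median was 0.36, RPS21 was at 0.41, RPL26L1 at -0.07 and RPL24 at 0.12. Without control 24 the median was -0.01 and RPS21 was at 0.13, without control 9 RPL24 was at -0.49, and without PLATE 1 RPL26L1 was at -0.27. These comparisons with control share the same 6 control libraries and are not independent of each other.

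The operated groups were then compared among themselves, as the study's question of graft type asks. Acellular against sham gave a median of 0.03 (all genes 0.02), with 10 of 17 above 0 (background 52.2%), 0 passing (background 0%; smallest adjusted p 0.934 in edgeR), 0 with an unadjusted p under 0.05 (background 4.87%) and 0 free of overlap (background 18.3%). RPL30 stood at 0.21 ± 0.308 (SE), RPLP1 at -0.18 ± 0.366 and RPS3 at 0.14 ± 0.361. Without acellular 6 the median was -0.18, RPL30 was at 0.08, RPLP1 at -0.37 and RPS3 at -0.13. Without acellular 10 the median was 0.20, RPL30 was at 0.37, RPLP1 at -0.01 and RPS3 at 0.32.

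PLATE grafts against sham gave a median of -0.25 (all genes 0.03), and 1 of 17 members, RPL26L1, was above 0 (background 52.6%). None passed (0 of 17; background 0%; smallest adjusted p 0.699 in edgeR) or had an unadjusted p under 0.05 (background 7.5%), the smallest being 0.141 for RPL28. RPL28 was at 296, 335, 548 and 342 CPM in PLATE 1, 5, 9 and 13 and at 494, 668 and 673 CPM in sham 11, 12 and 14, a log2 fold change of -0.69 ± 0.442 (SE). The groups overlapped for RPL28 through PLATE 9. RPS28 stood at -0.43 ± 0.372, and at -0.22 without sham 12. The members' median was -0.14 without PLATE 5.

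RPS16 was at 1017, 709, 971 and 909 CPM in PLATE 1, 5, 9 and 13 and at 1030, 1135 and 1138 CPM in sham 11, 12 and 14, so that all PLATE libraries were below all sham libraries. This held for 2 of 17 members (background 6.95% of genes lower without overlap, and 14.9% in either direction). For RPS16 the gap between the highest PLATE and the lowest sham library was small beside the spread within PLATE.

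PLATE against acellular grafts gave a median of -0.28 (all genes 0.02), and again RPL26L1 was the 1 of 17 members above 0 (background 52.4%). None passed (0 of 17; background 0%; smallest adjusted p 0.875 in edgeR), 0 had an unadjusted p under 0.05 (background 4.71%) and 0 were free of overlap (background 4.97%). RPS28 was at 405, 272, 520 and 477 CPM in PLATE 1, 5, 9 and 13 and at 847, 594 and 401 CPM in acellular 6, 8 and 10, a log2 fold change of -0.55 ± 0.372 (SE). Acellular 6 and 8 were above all PLATE libraries and acellular 10 was below 3 of them. RPL28 stood at -0.60 ± 0.442 and RPL30 at -0.33 ± 0.287. Without acellular 6 the members' median was -0.05, RPS28 was at -0.25, RPL28 at -0.12 and RPL30 at -0.21. Without acellular 10 the median was -0.50 and RPL30 was at -0.50.

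**Figure D5:**
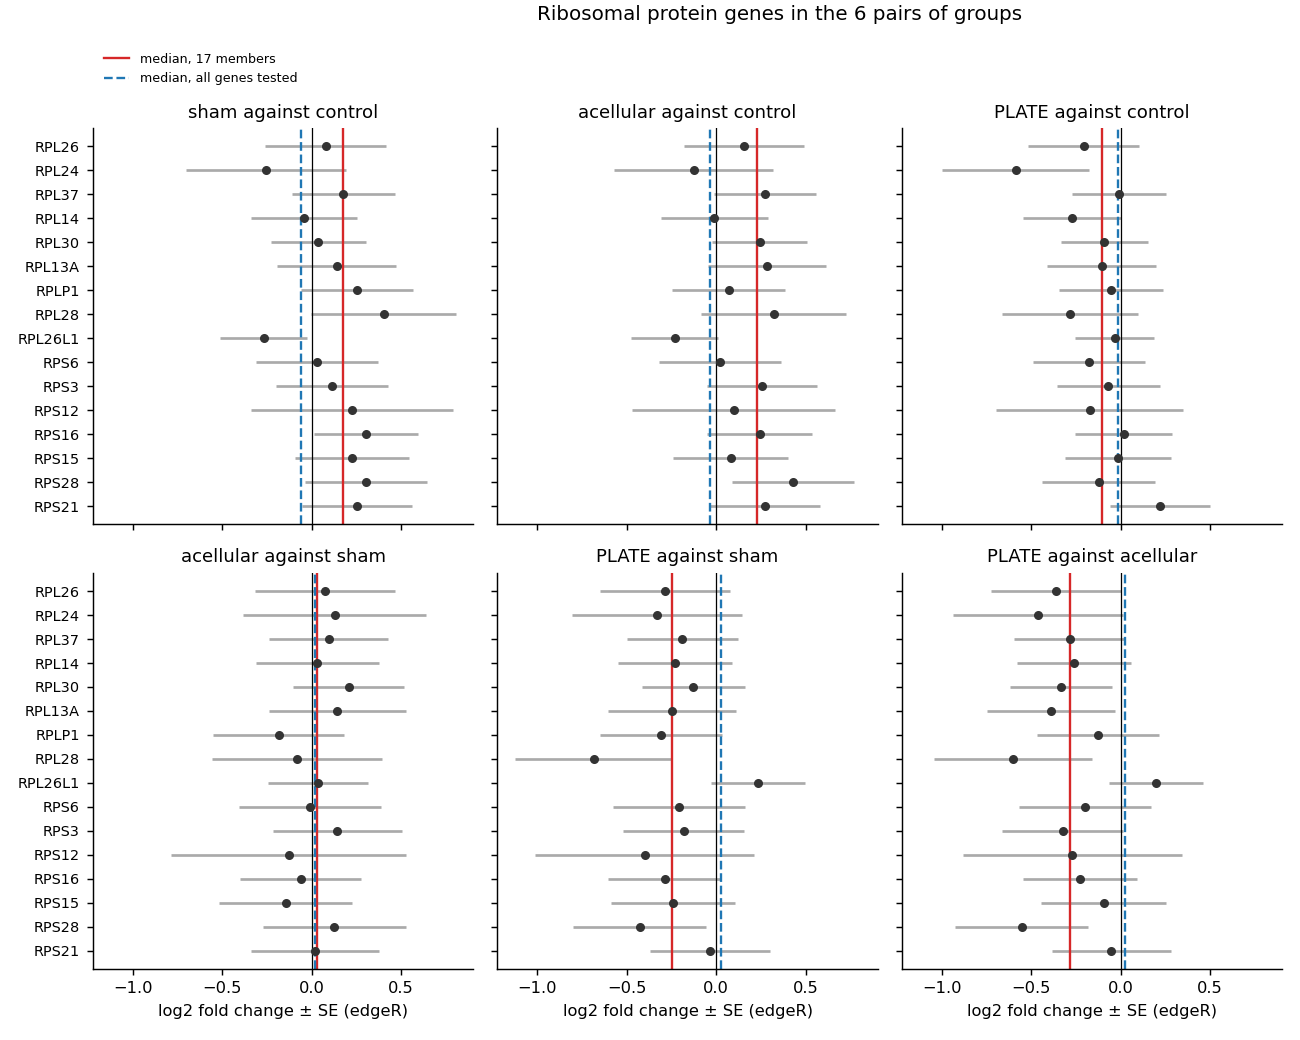
Log2 fold change ± SE (edgeR) of 16 of the 17 tested ribosomal protein genes in each of the 6 pairs of groups, with the median of the 17 members (solid red) and of all genes tested (dashed blue). The medians of the members run from -0.28 (PLATE against acellular) to 0.23 (acellular against control), and the standard errors are of the same size as the fold changes or larger for most members.

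Across these 7 comparisons the median standard error of a member ran from 0.237 to 0.373 log2 units, so a difference of the size of these medians was not detectable for a member on its own at this replication. DESeq2 and limma voom also called 0 of 17 members in every comparison. The comparisons of PLATE with sham and of PLATE with acellular share the PLATE libraries, and the members moved together, so 16 of 17 members on the same side do not count as 16 separate observations.

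Other genes of translation were set beside the family, and none passed the adjusted threshold in edgeR in any of the 7 comparisons. The genes named were picked for a small p within their list. Of 34 initiation factors 25 were tested, and of 19 other TOP mRNAs 6. The lists share genes, with EIF3E and EIF3F in both, so they are not separate observations. For the TOP mRNAs the median log2 fold change was 0.38 in acellular against control and 0.34 in acellular against sham. It was -0.48 in PLATE against acellular, where 0 of 6 were above 0 (background 52.4%). NAP1L1, a histone chaperone with a TOP mRNA, was at 775, 769 and 601 CPM in acellular 6, 8 and 10 and at 451, 434 and 413 CPM in sham 11, 12 and 14. In PLATE 1, 5, 9 and 13 NAP1L1 was at 508, 406, 567 and 417 CPM, and in controls at 328 to 707 CPM. All acellular libraries were thus above all sham and all PLATE libraries. Of all genes tested, 18.3% were free of overlap in acellular against sham and 4.97% in PLATE against acellular. The log2 fold changes of NAP1L1 were 0.72 ± 0.264 (SE) against sham and -0.59 ± 0.244 for PLATE against acellular (adjusted p 0.902 and 0.875 in edgeR). EIF3M, a subunit of initiation factor eIF3, stood at 0.72 ± 0.333 in acellular against control (adjusted p 0.827 in edgeR).

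In PLATE against sham the 45 of 54 ribosome assembly factors tested had a median of 0.10 and the initiation factors one of 0.16. Of 11 genes listed under elongation and termination, 4 were tested: ETF1, GSPT1, EEF2K and EEF1E1. They ran from -0.65 to 0.61 with a median of 0.30, and 3 of 4 were above 0 (background 52.6%). The ribosomal protein genes had a median of -0.25. ETF1, the release factor that ends translation, was at 347, 200, 284 and 184 CPM in PLATE 1, 5, 9 and 13 and at 159, 178 and 161 CPM in sham 11, 12 and 14 (0.61 ± 0.226 (SE), adjusted p 0.657 in edgeR). EIF6, which keeps new 60S subunits from joining too early, was at 93.1 to 171 CPM in PLATE and 77.5 to 84.4 CPM in sham libraries (0.53 ± 0.217 (SE), adjusted p 0.657 in edgeR). Both were higher in every PLATE than in every sham library (background 14.9% of genes without overlap in either direction). They were highest in PLATE 1, the library with the most B and plasma cell, macrophage and neutrophil marker RNA. In the same comparison the median log2 fold change was 3.86 for 8 B and plasma cell markers tested, 6.01 for 5 neutrophil markers, 1.41 for 8 macrophage markers and 1.43 for 10 cell cycle genes, none of which passed the threshold. The cell cycle genes summed to 686 CPM in PLATE 1. In PLATE 5, 9 and 13 they were at 190, 147 and 183 CPM, inside the sham range of 99.5 to 219 CPM. The part of these markers and cell cycle genes in the values of ETF1, EIF6 and the ribosomal protein genes was not tested.

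The 10 genes outside the family whose log2 CPM was most like its mean were found by Pearson's r over the 16 libraries, as a description without a test. ELOA, the transcriptionally active subunit of elongin, came first with r = 0.976 (Spearman's rho 0.929), and r was 0.953 over the 14 libraries left after taking out control 2 and control 24. MACO1, SETD9, SPATA5L1, ZNF428, EIF3H, SSR2, ENOPH1, METTL5 and OTUD5 followed with r from 0.941 down to 0.885. The points share depth and scaling. ELOA was at 4220 CPM in control 2, 1464 CPM in control 9 and 3502 CPM in acellular 6. In the RefSeq table ELOA lies next to RPL11, a ribosomal protein gene with no row of its own in the counts table. Of the 10 genes 9 are in the RefSeq table, and only ELOA neighbours a ribosomal protein gene there. The share of 11.1% thus rests on 1 gene. Among all tested genes outside the family the share was 0.522%. Whether reads of RPL11 were counted under ELOA was not tested.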

How the data were processed

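Per the submitters' processing notes, the authors used FastQC, HISAT2 2.2.1 and featureCounts. Per the labels' protocols, libraries were stranded poly(A) libraries. The genome build, annotation, strand setting and treatment of reads matching several places are not given in the sources used here; ribosomal protein genes have many processed copies, so member levels depend on those settings. The authors deposited raw, whole-number counts, 1 row per symbol. Reads of the pooled line without a symbol were left out.

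Counts were filtered with filterByExpr (minimum count 10), scaled by TMM and analysed by edgeR 4.0.16 (R 4.3.3) with its quasi-likelihood test. The 4 group means were estimated together from 16 libraries (12 residual degrees of freedom). P-values were adjusted by Benjamini-Hochberg over 10942 genes at 0.05. Log2 CPM used a prior count of 2. The test was tested on simulated data. DESeq2 1.42.0, limma 3.58.1 (voom), other scalings and each library left out in turn were alternatives. P-values measure the spread between animals as labelled.

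Members and lists were chosen with earlier results of these data known. Named were the 3 members with the smallest p per comparison, the 3 of each subunit with the highest mean CPM, paralogs, the 5 most and 5 least variable, and members not tested. Outside the family, named were the 10 genes most like the family mean and, from each translation list, genes with the smallest p in a comparison. A member that meets this rule is not reported here by name, but enters all counts, medians and means. The list of mitochondrial ribosomal proteins was added after the symbols in the table were seen.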

Additional observations from a re-analysis of the deposited data

Results flagged for a closer look

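In the 40 sets of control or PLATE values searched (20 measures in each group), 4 held a library whose gap to its nearest neighbour was large for the group's range; chance gives about 1 in 20. All 4 were control 2 against the other 5 controls, in TMM-scaled levels. RPL26 was at 6183 CPM with the next control at 3340 CPM, RPL30 at 2372 CPM with the next at 1324 CPM, RPL37 at 3047 CPM with the next at 1800 CPM, and RPS6 at 7719 CPM with the next at 3892 CPM. The 4 genes share that library and move together, so they are not separate observations. Without the scaling factor control 2 was at 3659 CPM for RPL26, 1404 CPM for RPL30 and 1803 CPM for RPL37, each below control 29 at 3832, 1477 and 1978 CPM. RPS6 was then at 4568 CPM in control 2 and at most 3697 CPM in the other controls.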

How the results depend on the processing

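The count of members past the threshold was 0 in all 7 comparisons under every alternative run, including each of 16 libraries left out. Leaving out 1 library at a time moved the members' median log2 fold change from 0.07 to 0.41 in sham against control, -0.02 to 0.50 in acellular against control, -0.20 to 0.14 in PLATE against control, -0.01 to 0.36 in operated against control, -0.18 to 0.20 in acellular against sham, -0.35 to -0.14 in PLATE against sham and -0.50 to -0.05 in PLATE against acellular. RPL24 in operated against control ran from -0.49 to 0.12, changing sign without control 2, and RPS3 in acellular against sham from -0.13 to 0.32, changing sign without acellular 6; the cause was not tested. The mean share was 2.31 to 2.56% for control, 2.88 to 3.25% for sham, 2.59 to 3.63% for acellular and 2.27 to 2.49% for PLATE libraries, and the subunit difference -0.23 to -0.12, -0.38 to -0.29, -0.32 to -0.22 and -0.37 to -0.26 in the same order. By construction the share depends on its denominator and members: for control, sham, acellular and PLATE in turn it was 1.83, 2.25, 2.29 and 1.76% of all counts, 2.90, 3.40, 3.69 and 2.72% without mitochondrially encoded genes (4.21% in control 2), and 2.10, 2.62, 2.73 and 2.05% without the most abundant member. Without a scaling factor, an alternative chosen after seeing the data, the medians were 0.38, 0.44, 0.03, 0.28, 0.04, -0.33 and -0.37 in the order above; the median of all genes then moved from -0.06 to 0.05 in sham against control and from -0.03 to 0.07 in acellular against control, and the members stood 0.33 and 0.37 above it, against 0.24 and 0.26 with TMM. No paired analysis was possible because the groups compared share fewer than 2 numbers (only 9, in control and PLATE). Groups held 3 to 6 libraries, and neither depth nor the number of libraries was varied.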

Other observations

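Mitochondrial ribosomal protein genes build the separate ribosome of mitochondria, and 50 were tested. Above 0 were 3 of 50 in sham against control (median log2 fold change -0.24; 42.1% of all genes above 0), 6 in acellular against control (median -0.27; 45.8%), 12 in PLATE against control (median -0.09; 47.7%) and 2 in operated against control (median -0.18; 44.6%). Among the operated groups 29 were above 0 in acellular against sham (median 0.05; 52.2%), 39 in PLATE against sham (median 0.15; 52.6%) and 37 in PLATE against acellular (median 0.15; 52.4%). Of the 17 cytoplasmic members 14, 14, 2, 13, 10, 1 and 1 were above 0 in the same order. Both families were mostly below 0 in PLATE against control, where the cytoplasmic median was 0.14 without control 2. In sham, acellular and operated against control the cytoplasmic members were mostly above 0 and the mitochondrial ones mostly below. In PLATE against sham and PLATE against acellular it was the reverse. The difference between the families was not tested. None of the 50 passed the threshold in edgeR in any comparison. The mean log2 CPM of the 50 was 5.54 in control 2, 5.48 in control 25 and 4.87 to 5.04 in the other controls. It was 4.85 to 4.94 in sham and 4.85 to 4.97 in acellular libraries. In PLATE 1 it was 5.48, and in the other PLATE libraries 4.85 to 4.99. The 50 genes moved partly together, so they are not 50 separate observations. MRPL17, a protein of the large mitochondrial subunit, was at 49.4, 53.95 and 39.9 CPM in sham 11, 12 and 14 and at 55.5 CPM at the lowest and 246 CPM at the highest in controls. In PLATE 1, 5, 9 and 13 MRPL17 was at 262, 84.1, 224 and 138 CPM, and in acellular 6, 8 and 10 at 128, 46.4 and 194 CPM. All sham libraries were below all control and all PLATE libraries. Of all genes tested, 3.69% were free of overlap in sham against control and 14.9% in PLATE against sham. The log2 fold changes of MRPL17 were -1.78 ± 0.512 (SE) for sham against control and 1.89 ± 0.539 for PLATE against sham (adjusted p 0.963 and 0.657 in edgeR).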
